A study of Mus musculus with 4 samples.

Results

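Of 15313 merged open chromatin regions on chromosomes 1 to 19 and X, 616 lay between protein-coding genes and more than 100 kb from every protein-coding gene end. They were found by merging all overlapping peaks of the 4 deposited peak lists and keeping each merged region whose middle met that distance rule in RefSeq genes of GRCm38. The rule used position alone, so calls, heights and genotype differences were not used to choose them. The lists came from ATAC-seq, in which a transposase cuts and tags accessible DNA, on 50000 mouse G1ER cells per library. G1ER is a line of erythroblasts, red cell precursors, which descends from Gata1-null cells and carries GATA1 fused to an estrogen receptor domain. There were 2 wild-type and 2 Chd7-/- libraries, and CHD7 is an ATP-dependent chromatin remodeller. Replicate 1 of each genotype is labelled 1 h and replicate 2 is labelled 2 h, the range given for the transposase reaction at 37 C. Cells of both genotypes grew with erythropoietin and stem cell factor, and the labels give no treatment. The descriptions of both knockout libraries carry the code E9, and whether the knockout is 1 clone is not stated. Nothing says that replicates were separate cultures, so their spread may be technical.

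Most distal open chromatin of a cell type lies in introns or near genes. Long intervals with few genes often flank genes of transcription factors and cell adhesion molecules, and can hold enhancers that contact a promoter over a great distance by looping. Well-known examples in blood are the enhancers far from Myc and from Kit. Such intervals also hold long non-coding RNA genes, CTCF-bound loop anchors, antigen receptor gene segments and repeats. A summit far from any gene can therefore be of several kinds, and an ATAC-seq peak alone does not say which.

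The libraries were similar in size, with 11074 peaks in wild-type replicate 1, 12033 in wild-type replicate 2, 12431 in knockout replicate 1 and 11361 in knockout replicate 2. The lists carry no read totals, so the depth of each library is unknown. The fragment pileup is the number of overlapping fragments at a summit. It was recovered as the best-fitting whole number from the deposited fold enrichment and p-value, for all but 1 peak of each library. The lowest local background that at least 100 peaks of a library shared, a measure of relative depth, was 0.79, 1.08, 1.04 and 1.01 fragments, lowest in wild-type replicate 1. Values of the 4 libraries are given in this order throughout, and a library that did not call a region has no pileup for it, which is not a pileup of 0. At 10 erythroid marker loci, 6 had a region within 1 kb of the gene and 5 had one called in all 4 libraries (Gata1, Klf1, Epor, Alas2 and Tfrc). Hba-a1, Hbb-bt, Hbb-bs and Slc4a1, genes of late red cells, had none, and Hba-a2 had one in 1 library. None of 8 loci of lymphoid, myeloid, endothelial and liver markers had a region.

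A few of the distant regions cover the start of a long non-coding RNA gene, and their DNA can be shown because RefSeq (GRCm38.p6) start windows were in the reference used here. Each window runs from 250 bases before a start to 50 after it. Of the 616 regions, 17 touched 23 windows of 18 genes, and 5 of the 17 were called in all 4 libraries. One window is shown for each of those 5 genes, followed by 1 called in every library but wild-type replicate 1 (Gm52919), 1 called by the knockout libraries alone (Gm38542) and the named gene Dubr. Letters are 5′ to 3′ on the gene's strand. Capitals mark matches on either strand to the GATA motif (AGATAA or TGATAA), RUNX (TGTGGT or TGCGGT), AP-1 (TGANTCA), an E-box (CAGCTG), ETS (CCGGAAG) and part of the CTCF motif (CCACTAG or CCACCAG), and overlapping matches each counted.
Gm26901: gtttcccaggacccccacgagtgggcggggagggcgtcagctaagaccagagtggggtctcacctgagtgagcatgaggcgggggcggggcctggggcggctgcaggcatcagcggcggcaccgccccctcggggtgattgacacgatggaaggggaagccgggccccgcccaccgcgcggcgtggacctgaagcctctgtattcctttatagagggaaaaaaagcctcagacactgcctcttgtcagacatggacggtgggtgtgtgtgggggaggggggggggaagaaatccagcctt
Gm39767: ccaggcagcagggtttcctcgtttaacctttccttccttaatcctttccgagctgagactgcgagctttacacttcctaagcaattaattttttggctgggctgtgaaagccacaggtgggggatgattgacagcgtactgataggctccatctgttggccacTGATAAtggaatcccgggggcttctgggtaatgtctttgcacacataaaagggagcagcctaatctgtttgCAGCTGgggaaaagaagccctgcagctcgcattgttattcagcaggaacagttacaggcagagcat
Gm31415: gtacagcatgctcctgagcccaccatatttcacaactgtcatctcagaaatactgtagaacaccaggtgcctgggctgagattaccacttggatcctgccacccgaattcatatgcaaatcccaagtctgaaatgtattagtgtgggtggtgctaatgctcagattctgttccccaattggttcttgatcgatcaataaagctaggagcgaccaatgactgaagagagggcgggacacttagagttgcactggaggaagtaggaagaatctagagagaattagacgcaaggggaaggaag
Gm31828: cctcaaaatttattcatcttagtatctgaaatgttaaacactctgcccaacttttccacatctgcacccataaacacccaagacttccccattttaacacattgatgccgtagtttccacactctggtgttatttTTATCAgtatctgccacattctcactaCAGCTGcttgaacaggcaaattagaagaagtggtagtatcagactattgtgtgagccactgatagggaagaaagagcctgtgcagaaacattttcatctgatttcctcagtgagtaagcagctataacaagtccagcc
Gm41638: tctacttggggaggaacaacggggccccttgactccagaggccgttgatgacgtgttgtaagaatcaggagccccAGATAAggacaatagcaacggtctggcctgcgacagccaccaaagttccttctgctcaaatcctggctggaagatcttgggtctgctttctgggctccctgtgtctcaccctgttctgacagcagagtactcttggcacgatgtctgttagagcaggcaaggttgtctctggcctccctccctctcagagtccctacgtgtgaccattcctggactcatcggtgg
Gm52919: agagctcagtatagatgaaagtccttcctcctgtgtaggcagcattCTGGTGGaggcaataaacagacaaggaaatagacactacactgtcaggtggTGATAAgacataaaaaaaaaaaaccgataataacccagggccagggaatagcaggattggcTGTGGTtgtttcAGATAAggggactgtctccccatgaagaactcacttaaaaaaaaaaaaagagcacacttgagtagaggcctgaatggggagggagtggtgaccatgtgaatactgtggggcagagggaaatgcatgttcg
Gm38542: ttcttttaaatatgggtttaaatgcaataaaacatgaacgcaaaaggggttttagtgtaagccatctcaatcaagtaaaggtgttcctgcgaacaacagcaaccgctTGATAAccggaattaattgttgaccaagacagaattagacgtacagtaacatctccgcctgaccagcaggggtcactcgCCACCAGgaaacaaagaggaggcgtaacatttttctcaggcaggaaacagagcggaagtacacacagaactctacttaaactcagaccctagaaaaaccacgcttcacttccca
Dubr: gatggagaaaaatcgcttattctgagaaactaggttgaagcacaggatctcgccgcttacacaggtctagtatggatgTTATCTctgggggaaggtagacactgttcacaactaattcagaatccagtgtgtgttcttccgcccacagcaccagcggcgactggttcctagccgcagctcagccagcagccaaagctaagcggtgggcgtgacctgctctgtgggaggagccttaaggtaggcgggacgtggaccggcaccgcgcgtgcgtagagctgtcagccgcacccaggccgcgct

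The Gm26901 window is chr1:7398047-7398346 on the minus strand, 65.7% G or C, and held none of the 6 motifs. Its region, between Pcmtd1 and Sntg1 and 224 kb from the nearer gene, had pileups of 60 and 67 in wild type against 75 and 63 in knockout. That is the highest pileup among the 17 regions with a start window. The Gm39767 window (chr2:21964118-21964417, minus strand) held a GATA and an E-box match. Its region between Gpr158 and Myo3a had pileups of 19 and 24 in wild type against 11 and 16 in knockout, so both knockout libraries were below both wild-type libraries. The Gm31415 window shown (chr3:49062087-49062386, plus strand) held no match and lies 681 kb from the nearest protein-coding gene end, between Pabpc4l and Pcdh18. A second window of this gene (chr3:49062189-49062488), wholly in the same region, held 1 match to part of the CTCF motif. Pileups of the region were 15 and 16 in wild type against 15 and 13 in knockout, nearly level. Gm31828 (chr4:93481346-93481645, minus strand), between Tusc1 and Caap1, had a GATA and an E-box match. Pileup at its region was 26 and 38 in wild type against 38 and 28 in knockout, and the genotypes overlapped. Gm41638 (chr17:83956754-83957053, minus strand) had 1 GATA match and lies 108 kb from the nearer of Haao and Zfp36l2, the latter an RNA-binding protein gene that acts in blood progenitors. Its region had pileups of 26 and 29 in wild type against 22 and 21 in knockout.

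The Gm52919 window (chr6:127321112-127321411, minus strand) held 2 GATA matches, a RUNX and a CTCF match, the most of the 8 windows shown, and lies 126 kb from the nearer of Ccnd2, which encodes cyclin D2, and Parp11. Its region was called in wild-type replicate 2 with a pileup of 10 and in the knockout libraries with 17 and 8. The Gm38542 window (chr3:78919584-78919883, minus strand), between Fstl5 and Rapgef2, had a GATA and a CTCF match, and 186 of its 300 bases lay in the region, with the CTCF match inside it and the GATA match outside. The knockout pileups there were 12 and 11. Dubr is a long non-coding RNA gene between Ccdc54 and Cblb, and 254 bases of its window (chr16:50732724-50733023, minus strand) lay in the region. Pileups were 17 and 10 in wild type against 21 in knockout replicate 1, and replicate 2 of the knockout did not call it. Over all 23 windows, 10 held a GATA match (43.5%) against 18.6% of the 32619 start windows of all genes in that reference. A RUNX match stood in 8 (34.8% against 22.3%), an E-box in 5 (21.7% against 16.4%), part of a CTCF motif in 4 (17.4% against 8.99%), and an AP-1 and an ETS match in 1 each (4.35% against 7.85% and 8.92%). These counts are over whole windows, and in 7 of the 10 windows a GATA match lay inside the called region, as did a RUNX match in 5 of 8. Windows of 1 gene overlap, and a match of letters is a description of the DNA, not a binding site. The median G or C content was 49.3% in the 23 windows and 53% in all of them.

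The distant regions were called less repeatably than all regions together, as were other intergenic regions more than 10 kb from a gene end. Of the 616, 222 were called in all 4 libraries (36.0%) against a background of 56.8% over all 15313 regions. A single library called 238 (38.6%, background 21.7%), 2 libraries called 88 (14.3%, background 11.3%) and 3 called 68 (11.04%, background 10.3%). Among the 5391 intergenic regions within 100 kb of a gene end, 55.5% were called in all 4 libraries, and 59.0% of the 9306 regions inside gene spans were. Most of the nearer intergenic regions (3657 between neighbouring genes) lay within 10 kb of a gene end, and 66.1% of these were called in all 4. At 10 to 50 kb and 50 to 100 kb the shares were 32.3% and 32.2%, below that of the distant regions. The exact binomial 95% interval of the 36.0% ran from 32.2% to 40.0%, for counting error only. Distant regions were also narrower, with a median width of 326.5 bp (range 200 to 4236) against 450 bp for the nearer intergenic regions. At 10 to 50 kb and 50 to 100 kb the median widths were 336 and 346.5 bp, against 523 bp within 10 kb. The plot of regions by number of calling libraries shows the shift to single calls.

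**Figure D1:**
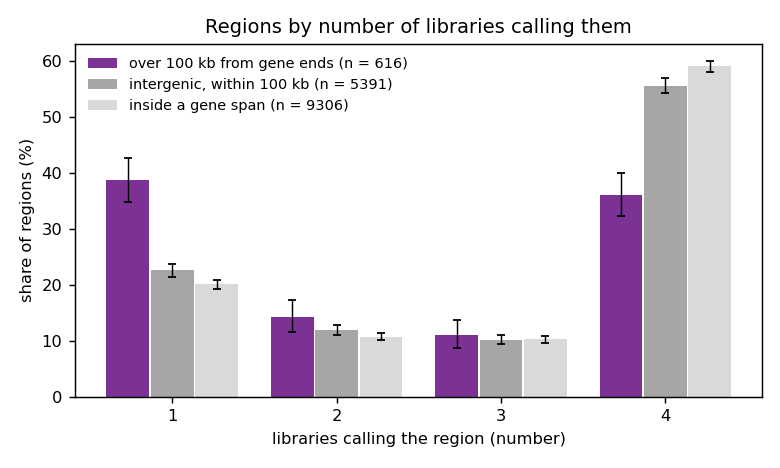
Share of regions (%, vertical axis) called in 1, 2, 3 or 4 libraries (horizontal axis) for regions over 100 kb from gene ends, intergenic regions within 100 kb and regions inside gene spans. Error bars are exact binomial 95% intervals, and the distant regions have the highest bar at 1 library (38.6%) and the lowest at 4 (36.0%).

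Each library showed the same contrast by itself. The median fold-enrichment percentile of the distant regions, ranked within each list, was 33.2 and 32.6 in wild type against 33.3 and 35.4 in knockout, against 52.9, 50.9, 50.5 and 51.7 for nearer intergenic regions. The mean difference was -17.9 ± 1.45 percentile points (SD, n = 4 libraries), with the same sign in 4 of 4. Median widths differed by -128 ± 9.68 bp, again in 4 of 4 libraries. Of the regions a library called, 60.2% of the distant and 74.5% of the nearer ones were called in every other library, on average. This gap was -8.90 and -8.99 points in wild type, against -22.3 and -16.9 in knockout. Each of these 3 differences had an exact two-sided sign-flip p = 0.125, the smallest that 4 libraries allow. The median number of summits per region was 1 in both classes. These contrasts are with all intergenic regions within 100 kb, most of them within 10 kb of a gene end, and were not made for single distance bins.

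Regions thinned out with distance from genes and then levelled off. Within 10 kb of a gene end the space between genes held 14.6 regions per Mb, at 10 to 50 kb 3.53 and at 50 to 100 kb 1.80. Beyond the limit used here the density was 1.16 per Mb at 100 to 200 kb, 0.632 at 200 to 500 kb, 0.563 at 500 to 1000 kb and 0.689 beyond 1000 kb. The whole distant space, 738 Mb, held 0.782 regions per Mb between neighbouring genes, and the 833 Mb nearer to genes held 6.44 per Mb. Another 39 distant regions lay between a chromosome end and its first or last gene and are not in these densities. The share called in all 4 libraries was 66.1% within 10 kb, 32.3% at 10 to 50 kb, 32.2% at 50 to 100 kb, 39.7% at 100 to 200 kb, 27.1% at 200 to 500 kb, 29.5% at 500 to 1000 kb and 33.3% beyond 1000 kb. The largest step between neighbouring bins lay between the first 2, and the lowest share was at 200 to 500 kb.

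**Figure D2:**
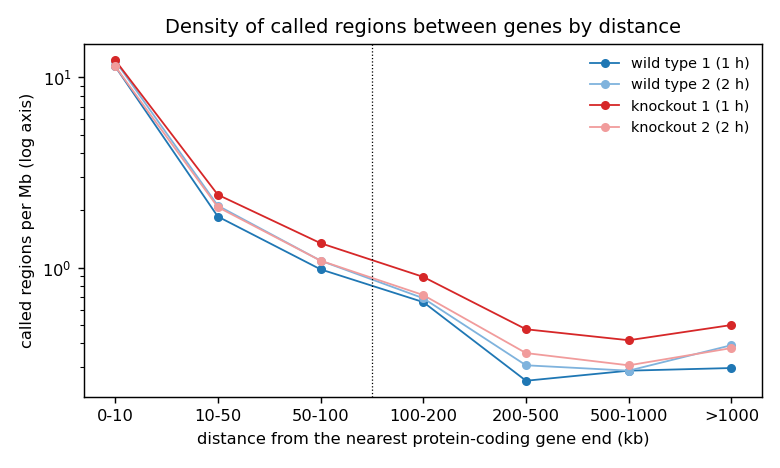
Called regions per Mb of space between genes (log axis) against distance from the nearest protein-coding gene end (kb), 1 line per library, with a dotted line at 100 kb. All 4 lines drop up to the bin of 200 to 500 kb and vary less beyond it, and knockout replicate 1 is the highest line in every bin.

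The 616 regions occupied 280 intervals between neighbouring genes and 9 between a chromosome end and a gene, and lay a median of 230 kb from a gene end, with 51 over 1 Mb away. At the limit itself, the nearest regions inside it were 101 kb from a gene end, at chr14:35912736-35913009 (1 library), chr12:99084243-99084529 (2 libraries) and chr17:39848124-39848783 (4 libraries, 102 kb). Just outside it were chr2:149305551-149305955 at 99496 bp (3 libraries), chr2:39325293-39325501 at 99048 bp (1 library) and chr6:66052389-66052816 at 98588 bp (4 libraries). The farthest region of all, chr1:102628107-102628425, lay 2138 kb from a gene end between Cntnap5b and Cdh20, both adhesion genes of the nervous system. It was called in all 4 libraries, with pileups of 43 and 46 in wild type against 38 and 39 in knockout. The regions named next were picked only among those called in at least 2 libraries, so their calls are partly set by that choice. The farthest of these, chr14:90911094-90911368 between Pcdh20 and Pcdh9, was 2102 kb away and had pileups of 19, 17, 17 and 21. Those 1962 kb (chr14:90433198-90433463) and 1714 kb (chr5:55835315-55835673, before Pcdh7) away were called in 2 and 3 libraries. Most distant regions (465, 75.5%) overlapped no annotated gene of any kind, 92 (14.9%) overlapped a long non-coding RNA gene and 14 a pseudogene. Of nearer intergenic regions, 19.1% overlapped a long non-coding RNA gene.

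Gaps of up to 50 kb joined 296 of the distant regions into 106 groups of at least 2, and 320 stood alone. Both of the longest groups by member count belonged to unusual DNA. At the start of chromosome 9, before Alkbh8, 20 regions fell within 38.2 kb, and 16 of them were called in all 4 libraries. A group of 13 regions spanned 189 kb of the immunoglobulin heavy chain variable segments on chromosome 12, and none of those 13 was called in all 4. Apart from these, 1 group had 7 regions, also at the heavy chain locus, and 1 had 6.

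Regions on a high local background were counted apart. In 34 regions the local background was 10 fragments or more in a calling library, a limit chosen after the values were seen. Just under the limit were chr12:97061346-97061873 and chr3:5860263-5860903, with backgrounds up to 9.48 and 9.28 fragments. Of the 34, 29 (85.3%) were called in all 4 libraries. The 34 came from 6 places: the start of chromosome 9, chr14:19415701-19419467, chr17:39843058-39848783, chr2:98662213-98667360, the start of chromosome 18 and a site near the end of chromosome 14. The chromosome 17 site overlaps Rn18s-rs5, related in sequence to 18S ribosomal RNA, and AY036118, and its background reached 155 fragments. Median pileups there were 300.0 and 321 in wild type against 308 and 301 in knockout. At the start of chromosome 9 the medians were 219, 240, 234 and 224. Fold enrichment over the 34 regions had a median of 2.57, against 6.88 over regions neither on high background nor at the heavy chain locus. The highest fold enrichment among them, 17.4, was at the site near the end of chromosome 14. The 3 widest distant regions were among the 34: chr17:39843058-39847293 at 4236 bp, chr9:3000026-3001542 at 1517 bp and chr14:19416837-19418348 at 1512 bp. None of the 34 was called in both libraries of 1 genotype and neither of the other, and 2 were called in a single library. Without the 34, 193 of 582 distant regions (33.2%) were called in all 4 libraries.

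The interval between Adam6a and Zfp386 on chromosome 12 holds the variable gene segments of the immunoglobulin heavy chain, which are rearranged in B cells. It contained 46 of the 616 regions, the most of any interval, and 34 of those were called in 1 library only. Wild-type replicates called 15 and 11 of them and knockout replicates 22 and 22. Only 3 were called in all 4 libraries. At chr12:115067812-115068373, over Ighv8-5, the pileups were 19 and 19 in wild type against 20 and 19 in knockout. At chr12:115158449-115158768, over Ighv1-53, they were 11 and 12 in wild type against 17 and 17 in knockout. At chr12:114014257-114014762 they were 16, 12, 16 and 15. Cd79a, a marker of B cells, had no region. With these 46, chromosome 12 held 92 distant regions, more than any other chromosome, and 46 without them. Chromosome 16 followed with 42, 1.22 per Mb of distant space between genes, and chromosomes 7 and X had the lowest densities, 0.291 and 0.310.

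**Figure D3:**
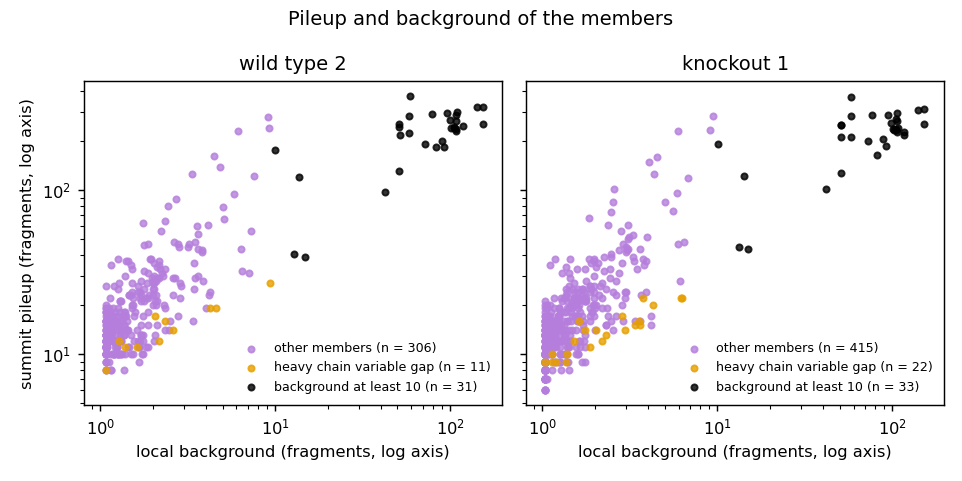
Summit pileup against local background (fragments, both log axes) of the distant regions called in wild-type replicate 2 (left) and knockout replicate 1 (right). Regions on a background of at least 10 (31 and 33) lie at the right. Just under that limit are chr12:97061346-97061873 (9.08 and 9.48) and chr3:5860263-5860903 (9.28 and 9.1). Heavy chain regions (11 and 22) lie along the lower edge of the cloud.

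None of the 10 strongest distant regions by fold enrichment overlapped an annotated gene, and some were nearly level across the libraries. The strongest, chr12:3109783-3110203, lies 137 kb from a gene end and before Rab10, a gene of membrane trafficking. It had a fold enrichment of 33.0, 32.1, 33.0 and 31.4 and pileups of 218, 228, 228 and 221. chr12:97061346-97061873, 1141 kb from the nearer of Flrt2 and Galc, had pileups of 279, 279, 284 and 280. Both were nearly level in all 4 libraries. chr19:61331201-61331650, beyond Csf2ra, had pileups of 158, 162, 159 and 159. chr5:60042814-60043180, 1766 kb from the nearer of Pcdh7 and G6pd2, had 116 and 126 in wild type against 149 and 135 in knockout. Here both knockout libraries were above both wild-type libraries, by 0.31 ± 0.18 (log2 ± SE; limma adjusted p = 0.681). In chr8:15519699-15520188, between Myom2 and Csmd1, the pileups were 118, 139, 125 and 117. Other members of the 10 lay between Pex2 and 1700008P02Rik, Nxph1 and Ndufa4, and Pcdh17 and Diaph3, beyond Cr2 and beyond Asmt, with pileups from 63 to 238. Local background ran from 1.64 to 9.48 fragments over the 10. It was 5.64 to 6.14 at the strongest region. At chr12:97061346-97061873 (8.96 to 9.48) and between Pex2 and 1700008P02Rik (8.74 to 9.28) it was just under the limit of 10 used above. Over these 10, the pileup of wild-type replicate 1 was a median of 0.976 of that of replicate 2, where the lowest backgrounds of those libraries stood at 0.731. For nearer intergenic regions above the 75th percentile of fold enrichment the ratio was 0.878. These regions were picked by height, so this ratio is a description.

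Genes that work in blood cell formation were among the genes flanking distant regions, in lists chosen with earlier results of these data known. Of 75 haematopoietic factor genes, 10 had at least 1 distant region in an interval next to them (Id4, Jun, Klf6, Meis1, Myc, Mycn, Runx1, Satb1, Tcf4 and Zeb2), 29 regions in all. Of the 29, 10 were called in all 4 libraries (34.5%, against 36.0% of all distant and 56.8% of all merged regions). Another 3 of the 29 were called in both knockout and no wild-type library (background 5.36% of distant and 2.71% of all regions). In both wild-type and no knockout library 0 were called (background 1.95% and 2.25%). Of 32 genes of cytokine signalling and survival, 5 (Acvr2a, Bcl2l11, Kit, Socs6 and Spred1) had 15 regions. All 4 libraries called 7 of the 15 (46.7%, against 36.0% of all distant regions). The 2 lists share the 6 regions between Zeb2 and Acvr2a, 3 of them called in all 4 libraries. Those 3 lie 2443 to 3574 kb from Acvr2a and 123 to 1254 kb from Zeb2. None of 27 erythroid genes, such as those of haemoglobin and haem synthesis, flanked one. Cadherin and protocadherin genes, which encode adhesion molecules, flanked 45 (7.31% of distant regions, against 0.334% of nearer ones). Only a long interval can hold a distant region, and the length of intervals was not taken into account in these shares. Some at these genes are long, such as 4.54 Mb between Pcdh20 and Pcdh9 and 4.42 Mb between Olfm4 and Pcdh17. All 4 libraries called 18 of the 45 (40%, against 36.0% of all distant regions). The neighbour with the closest end is not known to be the gene a region acts on.

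Myc, a driver of cell growth, borders a 1.79 Mb interval before Gsdmc with 8 distant regions, the most at any gene of the blood factor and cytokine lists, and 3 of them were called in all 4 libraries. At chr15:62158787-62159341, 169 kb from Myc and inside the long non-coding RNA gene Pvt1, the pileups were 20 and 30 in wild type against 39 and 32 in knockout. At chr15:62223160-62223708, also in Pvt1, they were 12 and 14 in wild type against 24 and 22 in knockout. In both, each knockout library was above each wild-type library. The log2 differences were 0.59 ± 0.20 (SE; limma adjusted p = 0.432) and 0.86 ± 0.18 (adjusted p = 0.294). At chr15:63592835-63593413, 1603 kb from Myc, the pileups were 14 and 16 in wild type against 19 and 20 in knockout, a difference of 0.44 ± 0.19 (adjusted p = 0.545). None of the 3 passed the adjusted threshold of 0.05. Scaled on the lowest background of each library, the 3 differences were 0.36, 0.63 and 0.21. The other 5 were called in 1 to 3 libraries, 4 of them in at least 2. Enhancers near the far end of this interval are known from blood stem cells, as background.

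Runx1, the blood transcription factor named in the title of the series, had 5 distant regions upstream of it, at 298 to 394 kb. chr16:93147501-93147918 had pileups of 16 and 23 in wild type against 14 and 18 in knockout. chr16:93152715-93153357, 327 kb upstream, had 24 and 23 in wild type against 24 and 27 in knockout. The genotypes overlapped at both. The next, chr16:93197325-93197667, was called by the knockout libraries alone, with pileups of 13 and 12. The remaining 2 were called in 1 library each. Zeb2, a repressor that acts in blood and neural crest cells, had 6. The region chr2:45239826-45240338, 123 kb upstream, overlapped Vis1, a gene annotated as miscellaneous RNA. Its pileups were 26 and 28 in wild type against 19 and 18 in knockout, the reverse of the Myc regions. The log2 difference was -0.44 ± 0.18 (SE; limma adjusted p = 0.535). chr2:45279427-45279905 had 20 and 18 in wild type against 16 and 14 in knockout, and chr2:46370902-46371392, 1254 kb from Zeb2, was level at 23, 24, 25 and 21.

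Kit, the receptor for stem cell factor, on which these cells depend in culture, had 5 distant regions. The region 114 kb upstream, chr5:75460422-75460878, had pileups of 28 and 27 in wild type against 25 and 24 in knockout. A region 174 kb downstream and nearer to Kdr (102 kb), chr5:75830208-75830657, had 22 and 20 in wild type against 18 and 12 in knockout. The log2 differences were -0.08 ± 0.19 and -0.40 ± 0.22 (SE; limma adjusted p = 0.948 and 0.641), so neither passed, and the first changed sign without wild-type replicate 1 (0.053). Bcl2l11, which encodes the death-promoting protein BIM, had 1 region, chr2:128295026-128295505, 133 kb downstream. Its pileups were 12 and 14 in wild type against 21 and 19 in knockout, a log2 difference of 0.67 ± 0.18 (SE; adjusted p = 0.375). Upstream of Jun, an AP-1 subunit, chr4:95156748-95157195 had 26 and 36 in wild type against 33 and 28 in knockout. Upstream of Spred1, an inhibitor of RAS signalling, chr2:116998871-116999264 had 22, 23, 27 and 21, and it lies nearer to Tmco5 (107 kb against 122 kb). The region in the interval next to Tcf4, an E-protein gene, was chr18:68691994-68692396 with 43, 47, 38 and 40. It lies 651 kb from Tcf4 and nearer to Mc2r, at 263 kb. Genotypes overlapped at Jun and Spred1, and at Tcf4 both knockout values were below both wild-type values.

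**Figure D4:**
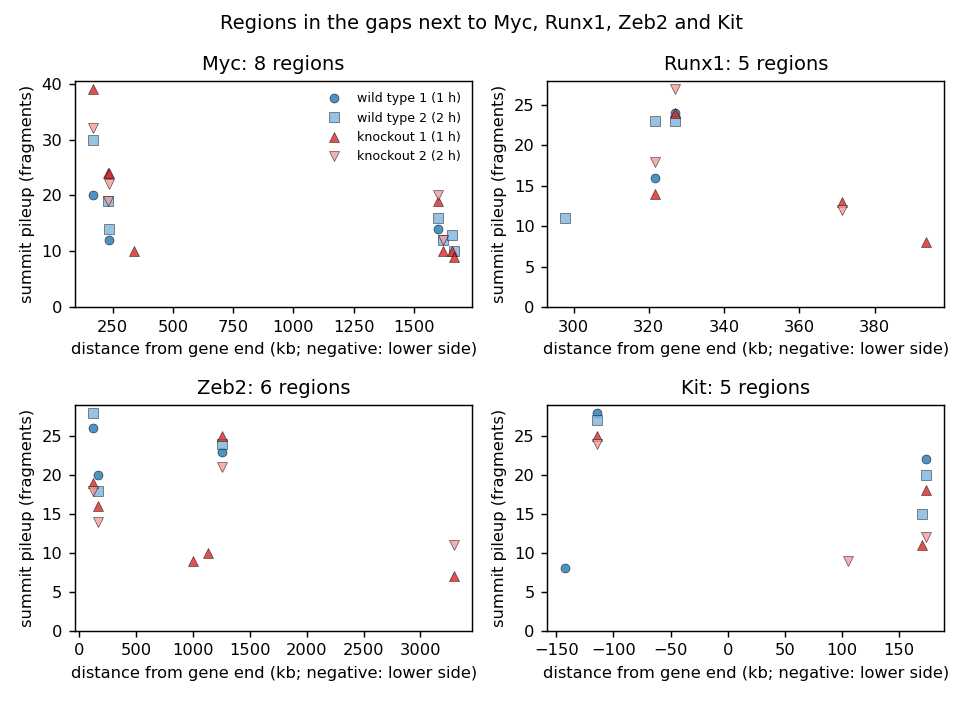
Summit pileup (fragments, vertical axis) of the distant regions next to Myc, Runx1, Zeb2 and Kit against distance from the gene end (kb, negative on the side of lower coordinates), 1 marker per calling library. The 2 Pvt1 regions called in all 4 libraries at 169 and 233 kb from Myc show knockout above wild type, and the Zeb2 region at 123 kb shows the reverse.

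The knockout lists held more distant peaks than the wild-type lists. There were 318 and 351 in wild type against 472 and 374 in knockout, or 2.87% and 2.92% against 3.80% and 3.29% of all peaks. Means were 2.89% ± 0.0321 and 3.54% ± 0.357 (SD, n = 2 each), a difference of 0.650 percentage points, with no overlap. The exact two-sided permutation p was 0.333, the smallest that 2 against 2 libraries allow. Within the labelled times the difference was 0.925 points at 1 h and 0.375 points at 2 h, with 1 library of each genotype at each. Knockout replicate 1, which also had the longest list, carried much of the count: it alone called 122 of the 238 single-library regions, against 56 in knockout replicate 2 and 30 in each wild-type library. Without it the share differed by 0.398 points and the number of peaks by 39.5, against 88.5 with it. With lists cut to the length of the shortest the share differed by 0.488 points. At a −log10 q of at least 5 the number differed by 34.0 peaks (exact permutation p = 0.667), so the genotypes overlapped, and the share by 0.409 points.

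Calls in both libraries of 1 genotype and neither of the other were few. There were 33 such regions for knockout (5.36%, background 2.71% over all regions) and 12 for wild type (1.95%, background 2.25%). The comparison rests on single calls, and a region missing from a list may lie just under its threshold. At a −log10 q of at least 5 the counts were 26 (6.18%, against 2.18% of all regions) and 8 (1.90%), while over all 12894 regions they were 281 for knockout and 387 for wild type. When that threshold was applied to the calling genotype alone, the distant counts were 18 and 3, and no share over all regions is given for that setting. With 1 library left out, the rule rests on a single library of a genotype, and the counts moved widely. Without wild-type replicate 1 they were 43 (7.34%, against 4.30% of all regions) for knockout and 42 (7.17% against 8.31%) for wild type. Without wild-type replicate 2 they were 65 (11.1% against 6.57%) and 42 (7.17% against 6.07%). Without knockout replicate 1 they were 90 (18.1% against 8.05%) and 28 (5.63% against 6.32%), and without knockout replicate 2 they were 156 (27.8% against 11.4%) and 22 (3.92% against 4.22%). Within the 1 h pair, 207 distant regions were called in knockout only (33.6%, background 16.8%) and 54 in wild type only (8.77%, background 8.08%). Within the 2 h pair these were 101 (16.4%, background 9.58%) and 78 (12.7%, background 14.0%).

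By distance, the share of knockout-only calls was 2.05% within 10 kb of a gene end, 5.31% at 10 to 50 kb, 6.28% at 50 to 100 kb, 6.23% at 100 to 200 kb, 6.63% at 200 to 500 kb, 3.41% at 500 to 1000 kb and 3.92% beyond. By strength, up to the 25th percentile of fold enrichment it was 4.71% of 403 distant and 4.78% of 2637 nearer intergenic regions. Between percentiles 25 and 50 it was 8.27% of 133 distant regions, against 3.43% of nearer ones. Between percentiles 50 and 75 it was 6.38% of 47 distant regions (3 of them), against 0.353% of 850 nearer ones. Above percentile 75 it was 0 of 33 distant and 0 of 739 nearer regions. No tests were made of these shares, since regions of 1 library are not replicates.

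The strongest knockout-only region was chr18:29673843-29674286 between Celf4, an RNA-binding protein gene, and Pik3c3, 592 kb from a gene end. Its pileups were 22 and 21 in the knockout libraries. chr15:19622234-19622737, between Cdh10 and Cdh12, also had 22 and 21. chr3:8022644-8023128, between Il7, a lymphocyte growth factor gene, and Stmn2, had 19 and 16. Next were chr6:11709472-11709939 (14 and 15), chr1:95451841-95452137 (13 and 19), chr11:10729264-10729585 (16 and 13) and the Runx1 region. The 33 lay on 17 chromosomes in 32 intervals and had pileups from 7 to 22. A long non-coding RNA gene overlapped 7 of the 33 and 2 of the 12 wild-type-only regions, against 14.9% of all distant regions. The strongest wild-type-only region was chr5:133320653-133320969 between Auts2 and Castor2, with pileups of 13 and 15. It was followed by chr14:36618360-36618919 before Ccser2 (17 and 11) and chr12:77092211-77092529, between Max, which encodes the partner of MYC, and Fut8 (11 and 14). chr2:161378357-161378698, between Ptprt and Chd6, a gene of the same remodeller family as Chd7, had 12 and 10. No wild-type-only region was above percentile 50 of fold enrichment, and 3 of the 33 knockout-only regions were.

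Heights were compared over the 8697 regions called in all 4 libraries with a recovered pileup, 222 of them distant. limma, on log2(pileup + 1) centred on each library's median, called none at an adjusted p under 0.05 (background 0.0%). With the labelled time as a block, 2 of all regions and 0 distant ones passed. At an unadjusted p under 0.05 there were 33 distant regions (14.9%, background 8.69%), 30 higher in knockout (13.5%, background 5.02%) and 3 lower (1.35%, background 3.67%). The distant regions had a median log2 difference of 0.10, against 0.02 over all regions tested, and 160 of 222 (72.1%, against 53.5%) were above 0. Their median centred log2 pileup was -0.25 and -0.27 in wild type against -0.11 and -0.13 in knockout, without overlap. All 33 lay off the high-background places. The direction depends on the scaling. When libraries were scaled on their lowest background, the median over all regions moved to -0.21 and that of distant regions to -0.13. Then 7 distant regions were higher and 17 lower at an unadjusted p under 0.05 (24 of 222, against 1173 of all 8697 regions). The lowest background of wild-type replicate 1 was below that of the other libraries, and the part of depth in these differences was not tested beyond this scaling.

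**Figure D5:**
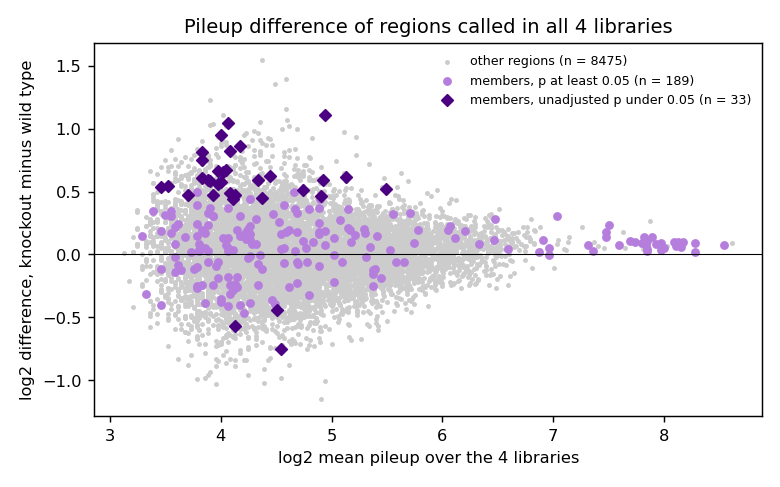
log2 difference in pileup, knockout minus wild type (vertical axis), against log2 mean pileup (horizontal axis) of regions called in all 4 libraries, centred on library medians. Distant regions with an unadjusted p under 0.05 (33, dark diamonds) are mostly above 0, and none passed an adjusted p of 0.05.

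The lowest p-values belonged to 5 regions, all higher in knockout and none below an adjusted p of 0.294. chr14:83232215-83232703, 1211 kb upstream of the protocadherin gene Pcdh17, had pileups of 10 and 12 in wild type against 24 and 18 in knockout, a log2 difference of 0.95 ± 0.19 (SE). chr10:17600426-17601272, 122 kb upstream of Cited2, a co-regulator needed for blood stem cells, had 15 and 25 in wild type against 50 and 33 in knockout (1.11 ± 0.23). It lies in the long non-coding RNA gene Gm32543. The third was the Pvt1 region described above. chr9:27643337-27643714, 147 kb upstream of the adhesion gene Opcml, had 11 and 14 against 22 and 21 (0.83 ± 0.18). chr18:39942151-39942667, between Pabpc2 and Yipf5, had 12 and 10 against 20 and 25 (1.05 ± 0.24). In each of the 5, both knockout libraries exceeded both wild-type libraries. Of the 3 in the other direction, the lowest p-value was at chr17:82379353-82379811, 641 kb upstream of the sodium-calcium exchanger gene Slc8a1, with 27 and 33 in wild type against 19 and 14 in knockout (-0.75 ± 0.19; limma adjusted p = 0.365). Scaled on the lowest background it was the single distant region to pass, at -0.98 ± 0.26 and an adjusted p of 0.0295, and 70 of all regions passed. The other 2 were the Zeb2 region and the region over the start of Gm39767.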

How the data were processed

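ATAC-seq was measured in 4 libraries. The authors deposited 1 peak list per library, with GRCm38 in the peak names and no header. Per the submitters' processing notes, the tools were Bowtie2 2.2.1 and MACS2 2.1.0. No source used here gives the calling threshold, read shift, duplicate removal or blacklist. The lists hold, as the authors deposited them, a score (a whole number near 10 times the −log10 q), the fold enrichment as a ratio of pileup to local background at the summit, and −log10 p and q values. These are the authors' values and rank peaks within 1 list only.

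Here, peaks were merged where they overlapped or touched, and regions were classed by RefSeq GRCm38.p6 protein-coding genes. Whole pileups were recovered from fold enrichment (pseudocount 1) and −log10 p with a tolerance of 0.001, on the assumption that they had not been rescaled. The best fit was kept without a check that no other whole number fitted, so single values can be wrong. For chr11:15698370-15698659 in wild-type replicate 1 it gave 6 on a background of 0.22, below the 0.79 of that library. Strength was the lowest fold-enrichment percentile over the calling libraries. Library values were compared by exact permutation or sign-flip tests, and log2(pileup + 1) with limma 3.58.1 (R 4.3.3), Benjamini-Hochberg adjusted over 8697 regions. On simulated counts with the means of these regions, limma found 77% of 200 regions changed 3-fold, with 1 false call. The simulated libraries differed in depth and counting error only, and smaller changes were not simulated. The largest log2 difference of a distant region here was 1.11, so the 77% is not a detection rate for these data. Same-numbered libraries share a labelled time, used as a block in an alternative, and their deviations correlated by 0.0021 over regions. Python 3.11.15, pandas 2.3.3 and scipy 1.17.1 did the rest. Named regions were the 10 strongest called in all 4 libraries, the 8 strongest of each genotype alone, the 3 widest and the 5 lowest limma p-values. Added to these were those at the distance limit, the 5 farthest and up to 12 next to listed genes. The last 2 of these groups were picked among regions called in more than 1 library. Other regions of those intervals and the 3 heavy chain regions were named after their values were seen. Some listed items are not reported here. Regions, lists and comparisons were chosen with earlier results of these data known. No genome was used, so DNA of regions outside RefSeq start windows was not analysed here. Alternatives are given in the closing section, and those on high background and the heavy chain locus were added after the data were seen.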

Additional observations from a re-analysis of the deposited data

Results flagged for a closer look

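Peaks on chromosome Y lay outside the regions compared. The wild-type lists held 10 and 10 such peaks and the knockout lists 12 and 15, each above the limit of 3 that a count of 0 allows. They were noticed because they lie in data that the comparisons did not use. Of these, 2 and 2 in wild type, against 1 and 2 in knockout, were more than 100 kb from every protein-coding gene end. They were not merged with the 616 regions, and no test was made.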

How the results depend on the processing

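With a limit of 50 kb there were 994 distant regions, with 200 kb 349, and with ends and spans of all annotated genes 111. Of these, 349, 113 and 39 were called in every library (35.1%, 32.4% and 35.1%, against 36.0% at 100 kb and 56.8% of all regions). Knockout-only counts under those limits were 56 (5.63%), 17 (4.87%) and 8 (7.21%), against 33 (5.36%), with a background of 2.71% over all regions. Wild-type-only counts were 18 (1.81%), 8 (2.29%) and 2 (1.80%), against 12 (1.95%), with a background of 2.25%. With a −log10 q of at least 5 asked of the calling genotype alone, the knockout-only and wild-type-only counts were 18 and 3. No share over all regions is given for that setting. Leaving out 1 library gave 43 to 156 knockout-only and 22 to 42 wild-type-only regions, with the shares over all regions given above. Same-numbered libraries share a labelled time, and using it as a replicate block left the difference in share at 0.650 points (exact permutation p = 0.50). In limma it gave 30 higher and 4 lower distant regions at an unadjusted p under 0.05 (34 of 222, against 817 of all 8697 regions). With the block, 2 of all regions and 0 distant ones passed an adjusted p of 0.05, and the lowest adjusted p of a distant region was 0.174. Scaled on the lowest background, 7 distant regions were higher and 17 lower at an unadjusted p under 0.05, against 30 and 3. These were 24 of 222, against 1173 of all 8697 regions. After adjustment 1 distant region passed, of 70 among all regions. Among regions with a mean pileup of at least the median, 10 of 97 distant ones were higher and 0 lower. Over all 4373 such regions, 359 differed in either direction. Leaving out 1 library gave 20 to 24 higher and 2 to 5 lower, and a median gap to all regions of 0.045 to 0.13, against 0.08. The cause of these changes was not tested.

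Of 117 values for 16 named regions, 108 kept their sign and 9 did not. On the lowest background the log2 differences changed sign next to Runx1 (chr16:93152715-93153357, -0.039), Spred1 (-0.071), Zeb2 (chr2:46370902-46371392, -0.18) and Jun (-0.16). Leaving out 1 library moved them across 0 next to Runx1 (chr16:93147501-93147918, -0.43 to 0.078), Tcf4 (-0.24 to 0.0013), Zeb2 (chr2:46370902-46371392, -0.031 to 0.12), Jun (-0.049 to 0.19) and upstream of Kit (-0.21 to 0.053). The library differences in share and the contrasts with nearer regions kept their direction under every alternative run for them. Depth is unknown, and 2 libraries per genotype cannot give an exact p under 0.333.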
